A study of Homo sapiens with 6 samples.

Results

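The DNAJ family comprises the co-chaperones that carry a J domain, and its genes were taken as every gene-table row whose symbol is DNAJ, then A, B or C, then a number. This gave 43 of 35993 rows, of which 4 belong to class A, 13 to class B and 26 to class C. RNA was sequenced from MIA PaCa-2, an established human pancreatic carcinoma cell line, in 3 untreated libraries and 3 libraries of cells that received 4 µM recombinant human cytoglobin (rhCYGB) for 48 h. The growth medium held 10% FBS, heat-inactivated, plus horse serum at 2.5%, and cells were moved to 1% FBS before treatment, which the protocol gives for both groups. The cytoglobin was produced in bacteria, and the labels name no vehicle for the untreated wells. All values come from 1 cell line, and in bulk RNA a change in every cell and a change in the share of cells that express a gene cannot be told apart.

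J-domain proteins deliver unfolded or client proteins to Hsp70 chaperones and trigger ATP hydrolysis by Hsp70, which locks the client in place until an exchange factor releases it. Class A proteins keep the full layout of bacterial DnaJ with a glycine-rich stretch and a zinc-binding region, class B proteins lack the zinc-binding region, and class C proteins share only the J domain. Members differ in where they work, such as ribosomes, the endoplasmic reticulum (ER), mitochondria or clathrin-coated vesicles, and act with the Hsp70 of that compartment.

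Read counts on genes summed to between 34838399 and 42271299 per library. Libraries within a group correlated at 0.995 or more in log2 CPM, the counts relative to TMM-scaled library size, and libraries of different groups at 0.941 or less, and no library stood apart from its group. Of 6 markers listed for the line, the keratins KRT8, KRT18 and KRT19 were abundant, as was VIM, which is also a marker of stellate cells. Each had a mean of 102.4 or more FPKM, fragments scaled to transcript length and depth, in both groups. By edgeR KRT8 fell by 0.81 and KRT19 by 0.61 on the log2 scale and VIM rose by 0.55. The epithelial markers EPCAM and CDH1 had 0 counts and at most 0.0537 CPM. Of 9 markers of other cells, PTPRC, PECAM1, PRSS1, CPA1 and INS had 0 counts in all 6 libraries, and COL1A1 and PDGFRB did not exceed 0.223 CPM. CD68 was at 34.3 to 37.98 CPM in untreated and 70.4 to 72.4 CPM in rhCYGB-treated cells, and ACTA2 at 5.17 to 5.96 CPM.

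To determine which co-chaperones responded to rhCYGB, all 14728 genes with enough counts were fitted with edgeR's quasi-likelihood test, and a gene was called at a Benjamini-Hochberg adjusted p under 0.05 together with a change of 2-fold or more. Of the 43 DNAJ genes, 38 were tested, and 10 were called higher and 1 lower after rhCYGB. The 10 higher genes were DNAJA4, DNAJB1, DNAJB2, DNAJB9, DNAJC1, DNAJC2, DNAJC6, DNAJC18, DNAJC25 and DNAJC27, and the lower gene was DNAJC22. These calls covered 28.9% of the tested members against 27.1% of all genes tested, so the share of changed genes was near the background. The direction was not: 26.3% of tested members were called higher against 12.4% of all genes, and 2.63% were called lower against 14.7%. Among all called genes 45.8% were higher, a split that moved to 33.9% without scaling factors and 35.5% with upper-quartile factors, while 90.9% of the called members were higher under each of these 3 scalings.

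**Figure D1:**
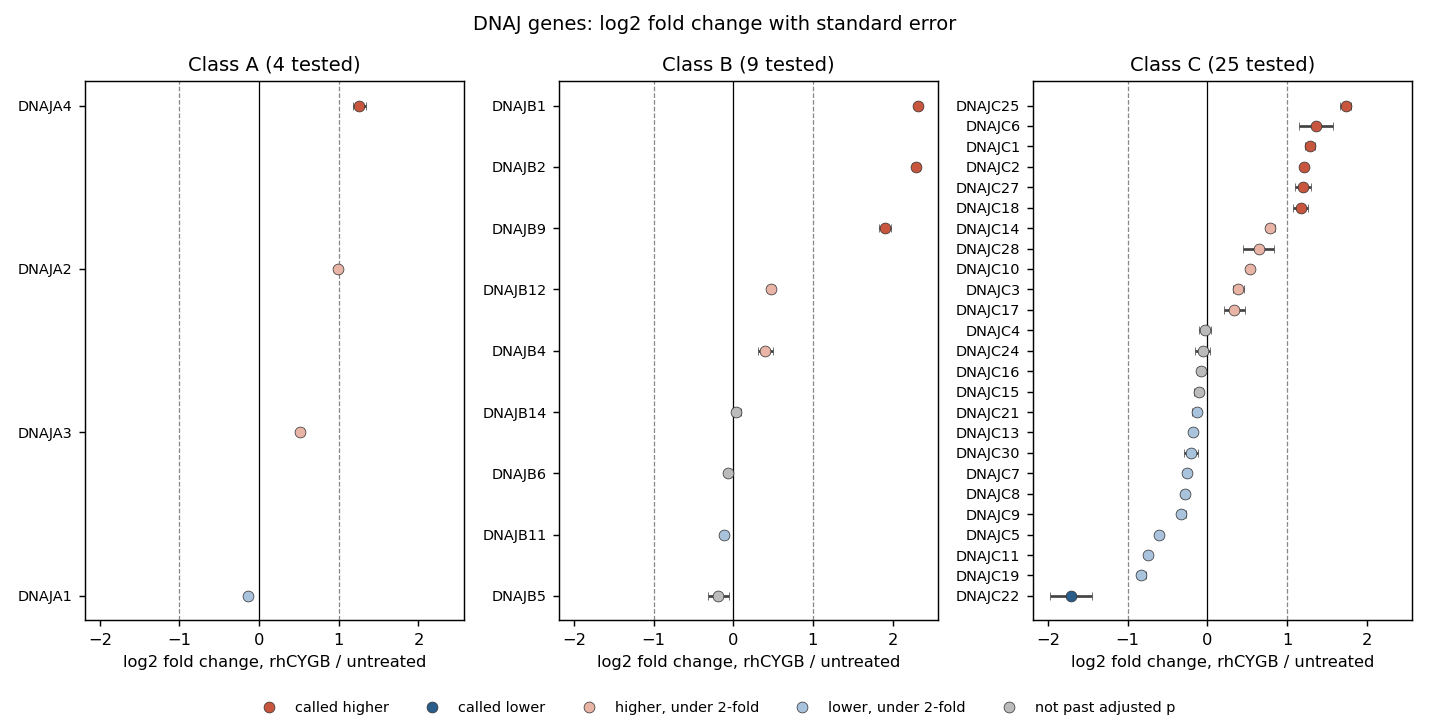
Log2 fold change of the 38 tested DNAJ genes (x axis, rhCYGB over untreated, edgeR) by class, with bars of 1 standard error and dashed lines at 2-fold; red points were called higher, the dark blue point lower, pale points passed the adjusted p below 2-fold and grey points did not pass. DNAJB1 and DNAJB2 lie farthest to the right at 2.32 and 2.29, and DNAJC22 farthest to the left at -1.71.

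By the adjusted p alone, 31 of the 38 members passed (81.6% against 77.6% of all genes), 19 higher and 12 lower (39.0% and 38.6% of all genes). In 19 members every rhCYGB library lay above every untreated library (39.8% of all genes did) and in 12 every rhCYGB library lay below (39.7%). The median log2 fold change was 0.19 over the 38 members against -0.005 over all genes. It was 0.75 in class A, 0.40 in class B and -0.06 in class C. Each class spanned a wide range, from -0.14 to 1.26 in A, from -0.19 to 2.32 in B and from -1.71 to 1.74 in C, and the difference between classes was not tested because members of a family are not replicates of a condition.

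The class A genes of the cytosol, DNAJA1, DNAJA2 and DNAJA4, encode closely related general partners of Hsp70, and they did not move alike. DNAJA4 (chr15:78556487-78574538 in the deposited table, which names no genome build) was measured at 10.7, 13.6 and 12.8 CPM in untreated libraries 1 to 3 and at 31.3, 29.3 and 28.6 CPM in the rhCYGB libraries. The groups were well apart, and DNAJA4 rose by 1.26 ± 0.0808 (SE) on the log2 scale (edgeR adjusted p = 1.15e-09). DNAJA2 was at 109.2, 110.5 and 114.5 CPM and then at 228.2, 219.4 and 216.2 CPM. All treated libraries were far above the untreated ones, and the fit gave a log2 fold change of 0.99 ± 0.0385 (edgeR adjusted p = 3.09e-12), just short of a call. Without untreated library 3 or without rhCYGB library 3 it became 1.01.

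DNAJA1 was at 186.1, 190.4 and 202.4 CPM in untreated cells and at 174.0, 174.9 and 175.4 CPM after rhCYGB. Its groups did not overlap, but the fall was small, at -0.14 ± 0.0392 (edgeR adjusted p = 0.00379). On the length-corrected FPKM scale DNAJA1 was 2.25 ± 0.0417 times DNAJA2 in untreated cells (SD, n = 3) and 1.03 ± 0.0322 times DNAJA2 in treated cells. The exact two-sided permutation p for this ratio was 0.1, the smallest that 3 against 3 libraries can give, also for each of the other 5 ratios compared (adjusted over the 6 ratios, the p stayed at 0.1). DNAJA3, the mitochondrial class A gene, rose by 0.52 ± 0.0413.

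Class B held the 3 largest rises of the family. DNAJB1 (gene ID 3337, chr19:14625576-14640134) encodes the heat-inducible Hsp40 that works with cytosolic Hsp70 in refolding and disaggregation. It was at 224.5, 229.3 and 229.8 CPM in untreated libraries and at 1204, 1099 and 1105 CPM after rhCYGB. The treated libraries were all far above the untreated ones, with a log2 fold change of 2.32 ± 0.0409, or 4.99-fold (edgeR adjusted p = 7.5e-16). DNAJB2 (chr2:220144088-220151617), whose ubiquitin-binding product passes clients to the proteasome, was at 15.2, 16.4 and 16.7 CPM and then at 78.0, 78.6 and 80.5 CPM. Here too the groups were far apart, and its log2 fold change of 2.29 ± 0.0525 (edgeR adjusted p = 1.03e-14) was the nearest in the family to that of DNAJB1. DNAJB9 (chr7:108210318-108215294), an ER protein that binds the Hsp70 BiP and restrains the stress sensor IRE1, was at 14.8, 15.3 and 15.7 CPM and then at 62.4, 51.1 and 57.7 CPM. The lowest treated library was still over 3 times any untreated one, and DNAJB9 rose by 1.90 ± 0.0713 (edgeR adjusted p = 2.04e-12).

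The other tested class B genes stayed below 2-fold. DNAJB4, the nearest relative of DNAJB1, rose by 0.40 ± 0.0947, and its table position overlaps FUBP1. DNAJB5, a further relative, had a log2 fold change of -0.19 ± 0.133 that did not pass (edgeR adjusted p = 0.21), although it did without scaling factors, with upper-quartile factors and in both limma fits (adjusted p between 0.0209 and 0.0363). On the FPKM scale DNAJB1 was 32.8 ± 0.656 times DNAJB4 in untreated and 123.8 ± 6.72 times DNAJB4 in treated cells. DNAJB12 and DNAJB14 encode related ER membrane proteins for the disposal of misfolded membrane proteins; DNAJB12 rose by 0.47 ± 0.0459, while DNAJB14 had 0.04 ± 0.060 and did not pass. DNAJB11, the abundant soluble BiP partner of the ER lumen, fell by 0.11 on the log2 scale (edgeR adjusted p = 0.0248), a fall that missed the threshold in 4 of the 6 fits without 1 library, at 0.0634 to 0.0975. DNAJB3, DNAJB7, DNAJB8 and DNAJB13, which are known mainly from testis or ciliated cells, and DNAJC12 of class C were not tested, with between 0 and 7 counts in every library. A count of 0 allows up to 3 counts, or 0.0669 to 0.0902 CPM depending on the library, and this floor covers counting error only.

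**Figure D2:**
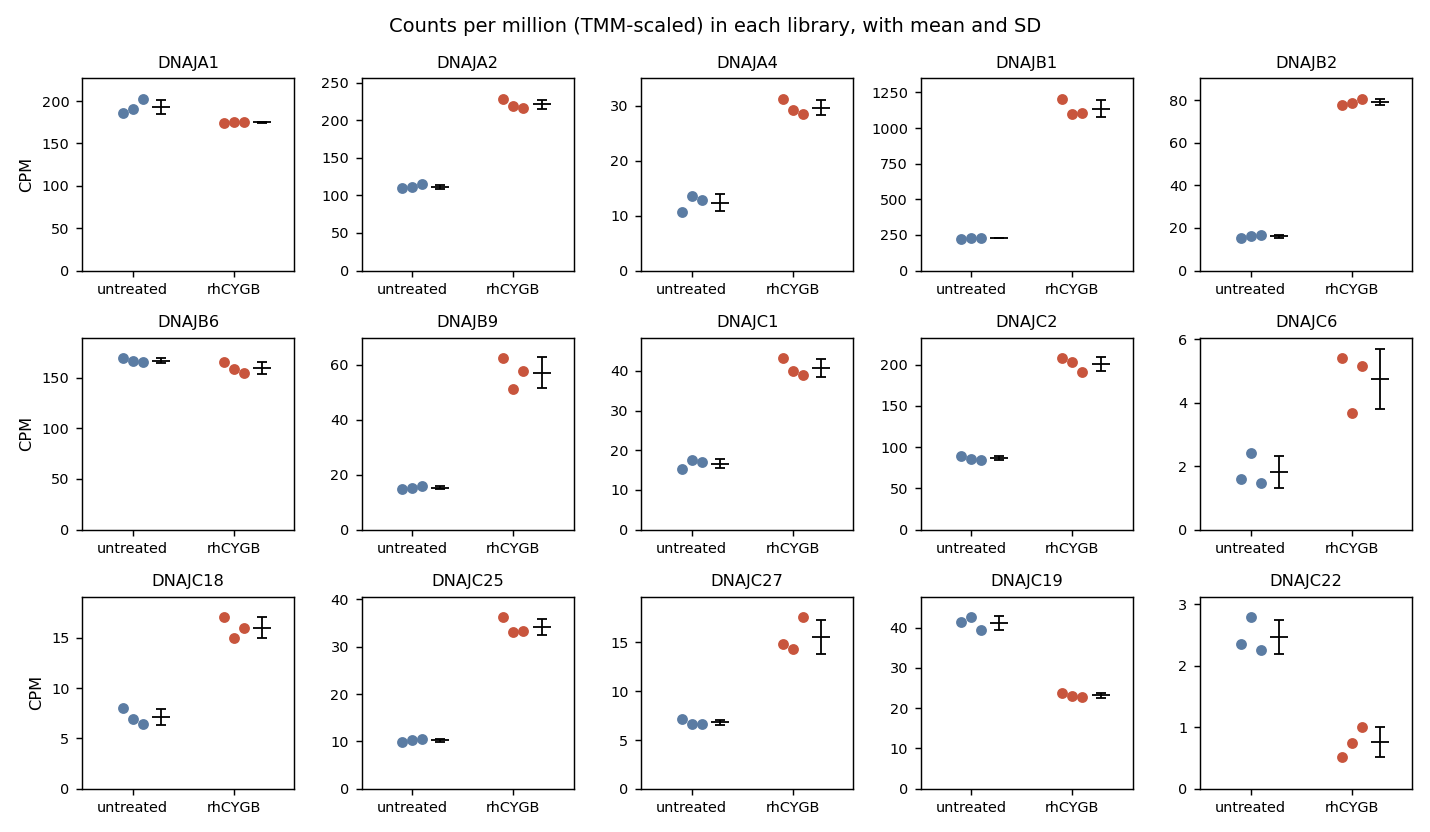
CPM (y axis, from 0) of 15 DNAJ genes in each of the 3 untreated (blue) and 3 rhCYGB (red) libraries, with the mean and SD in black beside each group; the panels hold the called genes and relatives named in the text. DNAJB1 goes from between 224.5 and 229.8 to between 1099 and 1204, while the groups of DNAJB6 overlap.

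The level of DNAJB1 altered the make-up of the whole family. Summed over all members, FPKM was 708.2 ± 13.5 in untreated and 1069 ± 48.5 in treated cells. Without DNAJB1 the sums were 613.5 ± 11.8 and 647.7 ± 23.0, and the groups nearly touched, with untreated library 3 at 626.4 and rhCYGB library 2 at 626.9. DNAJB1 supplied 13.4% ± 0.0781 of the summed FPKM before and 39.4% ± 0.607 after rhCYGB. Class B as a whole went from 34.5% ± 0.200 to 56.0% ± 0.527, class A from 19.6% ± 0.335 to 15.1% ± 0.387 and class C from 45.9% ± 0.165 to 28.9% ± 0.327. The share of class A fell although its summed FPKM went from 138.5 ± 5.01 to 160.9 ± 3.93. For class C the sum was 325.3 ± 5.35 and then 309.3 ± 12.9, and for class B 244.4 ± 3.29 and then 599.1 ± 32.8. In untreated cells DNAJB1 had the highest FPKM at 94.7 ± 1.85, followed by DNAJA1 at 77.6 ± 4.01, DNAJB6 at 68.2 ± 0.647 and DNAJC8 at 63.1 ± 2.00. In treated cells DNAJB1 stood at 421.5 ± 25.8, followed by DNAJC2 at 71.7 ± 3.07 and DNAJB6 at 68.4 ± 3.00. Next came DNAJA1 at 62.7 ± 1.45 and DNAJA2 at 61.2 ± 2.14, within each other's spread. FPKM is not TMM-scaled, so its folds differ from those of the fit. The TMM factors were 1.0571 to 1.0606 in untreated and 0.9318 to 0.9552 in rhCYGB libraries. Scaling by them would raise the treated sums relative to the untreated ones. The small fall of the class C sum and the near contact of the groups without DNAJB1 are therefore stated for FPKM only.

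**Figure D3:**
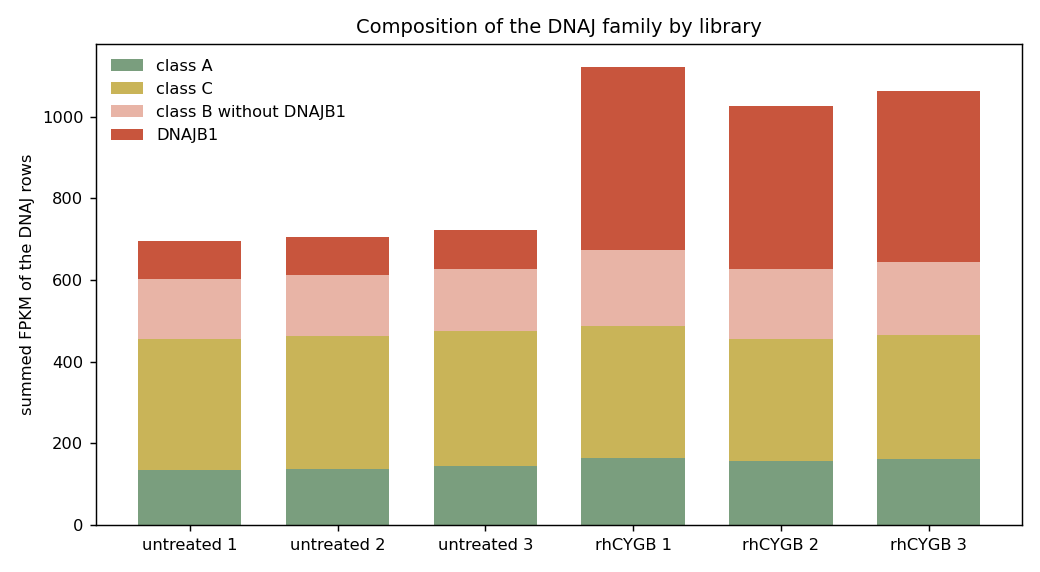
Summed FPKM of the DNAJ genes (y axis) in each library (x axis), stacked by class A, class C, class B without DNAJB1, and DNAJB1. The DNAJB1 segment grows from 13.4% to 39.4% of the bar on average, and the rest of the bar stays between 603.3 and 672.4 FPKM.

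DNAJB6, a class B suppressor of protein aggregation, did not pass the test at the gene level, while its isoforms moved in opposite directions. At the gene level it was at 169.1, 165.9 and 164.9 CPM in untreated and at 165.7, 158.5 and 154.2 CPM in treated libraries, and the groups overlapped (log2 fold change -0.06 ± 0.0384, edgeR adjusted p = 0.145). Without scaling factors the value was -0.23 (adjusted p = 3.92e-05) and with upper-quartile factors -0.21 (adjusted p = 0.000228), settings that also lowered the median of all genes, to -0.169 and -0.146. The long mRNA (transcript variant 1, NM_058246, chr7:157129698-157210133 in the deposited table) had estimated counts of 5302, 6272 and 5590 in untreated and 3104, 2786 and 2877 in treated libraries. The short mRNA (transcript variant 2, NM_005494, chr7:157129698-157179018) had 995, 1122 and 1102 in untreated and 3035, 2486 and 2791 in treated libraries. The short form thus stood far below the long form in every untreated library and near it in every treated one.

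The short form made up 15.8% ± 0.648 of the gene's counts in untreated and 48.5% ± 1.18 in treated cells (SD, n = 3), and the long form 83.9% ± 0.665 and 51.3% ± 1.35. In a fit of all transcripts with edgeR's quasi-likelihood test, the short form rose by 1.48 on the log2 scale (adjusted p = 4.08e-05) and the long form fell by 0.85 (adjusted p = 9e-05). The ratio of short to long counts was 0.188 ± 0.00913 and 0.947 ± 0.0473. Members with 2 or more tested transcripts that each held 10% or more of the gene's counts in a group numbered 16. Of these, DNAJB6 was the 1 member with transcripts past the adjusted p in opposite directions. A share of 1 in 16 is near the 5.22% of 5442 such genes in the table. Isoform counts are estimates of an assembly model, and DNAJB6 isoforms were singled out after their values were seen.

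The products differ at the C-terminal end. In GENCODE v29 (GRCh38) the short mRNA has 8 exons and 241 codons and the long mRNA 10 exons and 326 codons, and their first 693 coding bases are identical. The last 30 shared coding bases are shown in lower case and the next 30 in capitals, 5′ to 3′ on the plus strand, because these capitals are what separates the isoforms. In the short mRNA the stretch is one block in a terminal exon at chr7:157385584-157385643, and its capitals are the last coding bases before the stop codon. In the long mRNA the stretch starts at the same base, crosses an intron and ends at base 157409826 of the next exon. The short form is known to reach both cytosol and nucleus, and the long form to be nuclear.
DNAJB6 short mRNA: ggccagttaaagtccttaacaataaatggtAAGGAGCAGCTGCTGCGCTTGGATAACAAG
DNAJB6 long mRNA: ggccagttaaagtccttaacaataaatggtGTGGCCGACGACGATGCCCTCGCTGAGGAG

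**Figure D4:**
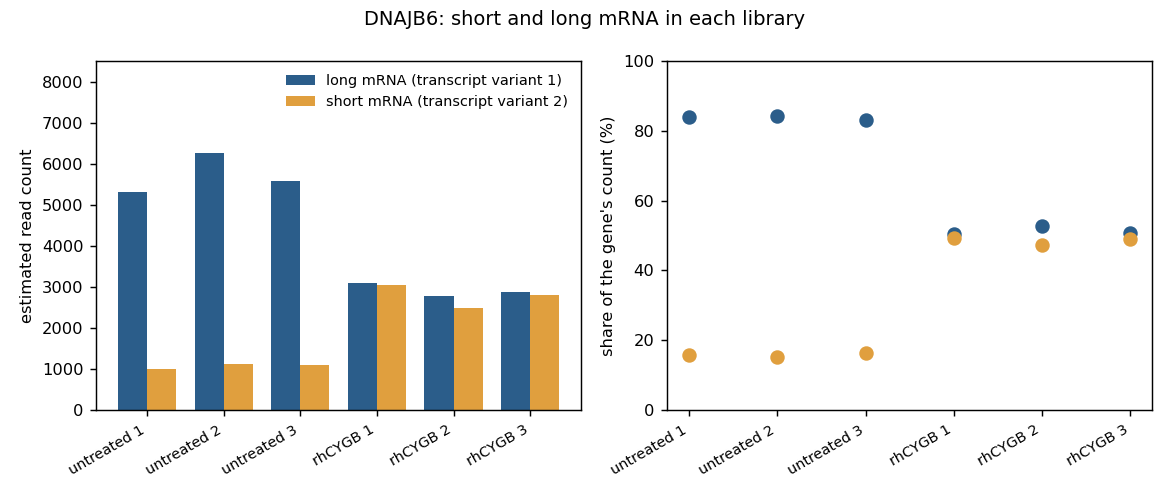
Estimated read count (left, y axis from 0) and share of the gene's count in percent (right) of the long (blue) and short (orange) DNAJB6 mRNA in each of the 6 libraries. The short form holds 15.8% on average in untreated and 48.5% in treated libraries, and the groups do not overlap.

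Across the family 99 transcripts were listed and 80 tested, and 13 were called higher and 2 lower (16.9% of all transcripts were called). The transcript fit has its own scaling, so its values are not on the scale of the gene fit. DNAJA2, with 100% of its counts on NM_005880, had 0.91 there and 0.99 in the gene fit. Both abundant DNAJB2 isoforms, NM_001039550 and NM_006736, rose together, by 2.29 and 2.18 on the log2 scale, and the first held 33.2% of counts before and 35.0% after rhCYGB. The DNAJC25 isoforms NM_001015882 and NR_037148 likewise rose by 1.66 and 1.65 with shares that did not shift (61.0% and 61.2% for the first). For DNAJA4, NM_001130182 rose by 1.20 and NM_018602 by 1.27, the latter with an adjusted p of 0.0365 in edgeR that 4 of the 6 fits without 1 library put over 0.05, at 0.0837 to 0.102. DNAJC10 had a non-coding RNA, NR_073367, with 21, 5 and 15 estimated counts in untreated and 558, 543 and 478 in treated libraries, chosen after its values were seen. Counts of DNAJC2, DNAJC6 and DNAJC27 moved between isoforms from library to library, so only their gene totals are given.

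Class C genes are best read by where their products act. Of 11 ER members of classes B and C, 8 rose by the adjusted p and 4 were called higher, 1 fell and 2 did not pass, with a median log2 fold change of 0.54. Over all genes 39.0% rose and 38.6% fell by the adjusted p, and 12.4% were called higher. DNAJC25, a predicted ER membrane protein, was at 9.93, 10.3 and 10.6 CPM in untreated and 36.2, 33.2 and 33.3 CPM in treated libraries. All treated libraries were more than 3 times the untreated ones, at a log2 fold change of 1.74 ± 0.0653 (edgeR adjusted p = 2.1e-12). The table lists the read-through gene DNAJC25-GNG10 over it with at most 13 counts. DNAJC1, which binds ribosomes at the ER membrane, was at 15.3, 17.4 and 17.1 and then at 43.2, 40.0 and 39.0 CPM, without overlap, and rose by 1.29 ± 0.0653. DNAJC18, a relative of DNAJB12, was at 7.999, 6.917 and 6.424 and then at 17.0, 14.9 and 16.0 CPM, again without overlap, and rose by 1.17 ± 0.0993.

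The remaining ER genes moved by less than 2-fold. DNAJC14, which assists receptor export and overlaps ORMDL2 and TMEM198B in the table, rose by 0.79. The disulfide reductase gene DNAJC10 rose by 0.54 and DNAJC3, whose product is a soluble BiP partner, by 0.39. DNAJC16 had a log2 fold change of -0.08 that did not pass.

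Of the 5 members listed as mitochondrial, 0 were called, against 27.1% of all genes. By the adjusted p 3 fell and 1, DNAJA3, rose, against 38.6% lower and 39.0% higher over all genes. The median of the 5 was -0.20. Members without a listed place were not counted, among them DNAJC28, which rose by 0.64, and DNAJC4, which did not pass. Places were not compared by a test. DNAJC19, the J-domain protein of the import motor at the inner membrane, was at 41.5, 42.6 and 39.3 CPM in untreated and at 23.7, 23.1 and 22.7 CPM in treated libraries. Every treated library was lower, and DNAJC19 fell by 0.83 on the log2 scale (SE 0.0546, edgeR adjusted p = 1.55e-09). Its related DNAJC15 had -0.11 ± 0.0553 and did not pass, except without rhCYGB library 1 (-0.15, edgeR adjusted p = 0.0275). DNAJC11, a protein of cristae organization, was at 92.4, 92.4 and 92.7 and then at 54.1, 56.4 and 55.2 CPM. The groups were far apart for so small a spread, with a fall of 0.75 (edgeR adjusted p = 1.79e-10), and its position overlaps THAP3. DNAJC30 had -0.20 ± 0.0876 with an adjusted p of 0.0455 in edgeR and overlapping groups. It had -0.32 without rhCYGB library 1 and -0.12 without rhCYGB library 3, and 5 of the 6 fits without 1 library missed the threshold, at 0.0807 to 0.228.

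In the remaining places, changes were mixed. DNAJC2, a chaperone of the ribosome, was at 89.4, 85.4 and 84.9 CPM in untreated and at 207.9, 203.8 and 190.8 CPM in treated libraries, and its range overlaps PMPCB in the table, a gene with a log2 fold change of 0.02. The groups were far apart, at a rise of 1.21 ± 0.0426 (edgeR adjusted p = 1.01e-12). DNAJC17, a splicing-related gene that overlaps ZFYVE19, rose by 0.34 (edgeR adjusted p = 0.0269). Without rhCYGB library 2 it had 0.20 (adjusted p = 0.16), and it also missed the threshold without untreated library 2 or 3, in both limma fits, with DESeq2's Wald test, and without scaling factors or with upper-quartile factors. DNAJC8, also linked to splicing, fell by 0.28. DNAJC21 of ribosome biogenesis fell by 0.13 (edgeR adjusted p = 0.0404), and had -0.08 without rhCYGB library 2 (adjusted p = 0.173) and also missed the threshold without untreated library 1 or 2 and without a filter on low counts. DNAJC6, the auxilin that uncoats clathrin vesicles, was weakly expressed at 1.61, 2.41 and 1.47 CPM and then at 5.41, 3.67 and 5.15 CPM. The groups did not overlap despite the wide spread, with a rise of 1.37 ± 0.213 (edgeR adjusted p = 2.96e-05). DNAJC5, the cysteine string protein of secretory vesicles, fell by 0.60, and DNAJC13 of endosomes by 0.18.

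DNAJC22 (chr12:49740671-49747473), a little-described membrane protein, was the 1 member called lower. It was at 2.36, 2.79 and 2.26 CPM in untreated and at 0.512, 0.752 and 1.00 CPM in treated libraries, resting on 19 to 37 counts per treated library. The groups were apart, at a fall of 1.71 on the log2 scale (SE 0.262, edgeR adjusted p = 2.49e-05). DNAJC27, a Ras-like GTPase joined to a J domain, was at 7.14, 6.63 and 6.65 and then at 14.9, 14.3 and 17.6 CPM. Every treated library was higher, at a rise of 1.20 ± 0.0997 (edgeR adjusted p = 2.61e-08). DNAJC28 rose by 0.64, the Hsp70 and Hsp90 adaptor DNAJC7 fell by 0.26 and the histone chaperone DNAJC9 fell by 0.33, the last 2 from positions shared with CNP and FAM149B1. DNAJC4 and the diphthamide synthesis gene DNAJC24 had -0.03 ± 0.0811 and -0.06 ± 0.0907 and did not pass. DNAJA4, DNAJC6, DNAJC18, DNAJC22 and DNAJC27 had low FPKM, and with limma on log2(FPKM + 1) their changes were below 2-fold.

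The partners of the DNAJ proteins came from lists of Hsp70 and Hsp110 genes, exchange factors and other co-chaperones. Of 16 Hsp70 and Hsp110 genes, 15 were tested and 9 were called higher (60% against 12.4% of all genes) and 0 lower (14.7%). Their median log2 fold change was 1.22. The edgeR test put 2 of them lower at an adjusted p alone, HSPA14 at -0.25 and the weakly expressed HSPA2 at -0.94. In the cytosol, the stress-inducible HSPA1A and HSPA1B rose by 3.16 each, but their near-identical sequences mean that reads may be split between them. HSPA6 rose by 5.81 from under 0.564 CPM, and the constitutive HSPA8, at 905.5 FPKM the most abundant of the list before treatment, rose by 0.77. DNAJB1 FPKM amounted to 0.105 ± 0.00103 times that of HSPA8 in untreated and 0.306 ± 0.0111 times in treated cells, and to 1.99 ± 0.0608 and 1.11 ± 0.0382 times that of HSPA1A and HSPA1B together.

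In the ER, HSPA5, which encodes BiP, rose by 2.15, HSPA13 by 1.82 and the Hsp110 gene HYOU1 by 1.13, while SEC63, the J-domain protein of the translocon, rose by 0.27 and the exchange factor SIL1 fell by 0.25. In mitochondria, HSPA9 rose by 1.51. Its exchange factor genes divided, with GRPEL2 higher by 1.28 and GRPEL1 lower by 0.32 on the log2 scale. PAM16, the J-like partner of DNAJC19 in the import motor, rose by 1.06 while DNAJC19 fell, and a CORO7-PAM16 read-through row in the table may take or lend PAM16 reads. DNLZ, which keeps HSPA9 soluble, rose by 1.39, and the iron-sulfur co-chaperone HSCB had 0.18 ± 0.0939 and did not pass.

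**Figure D5:**
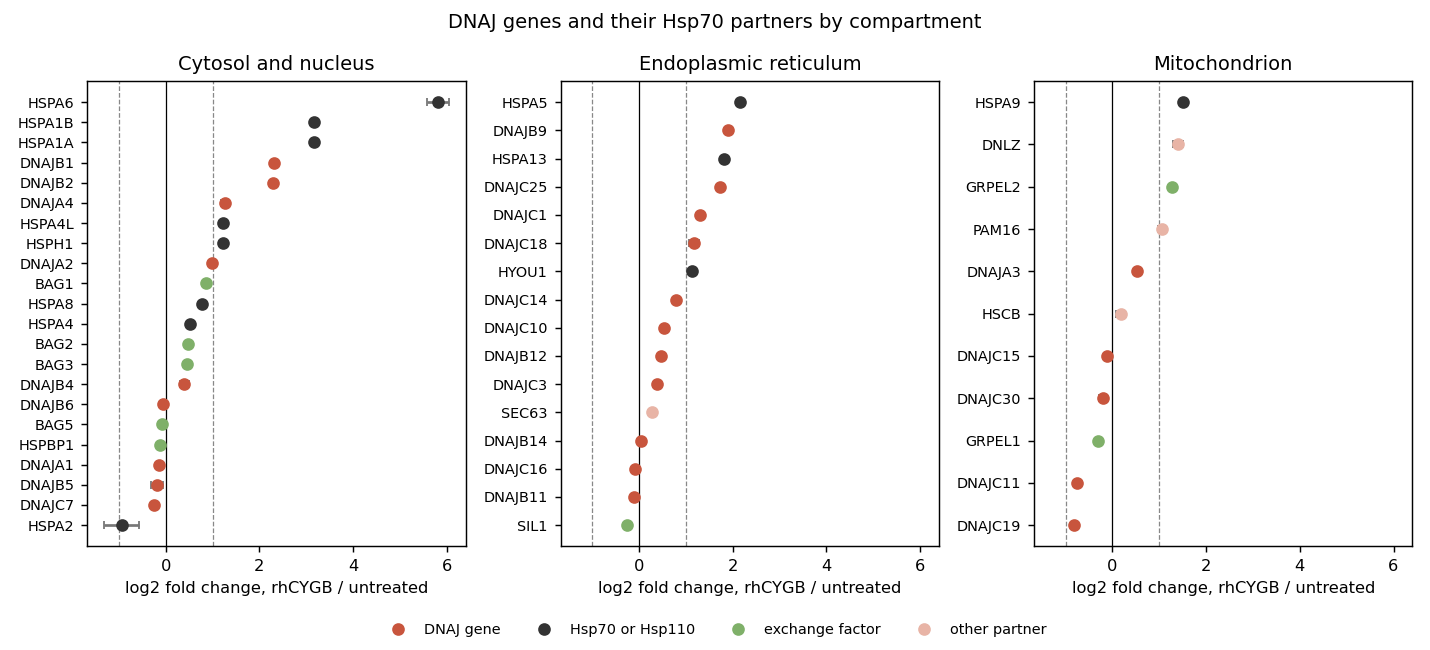
Log2 fold change with 1 standard error (x axis, rhCYGB over untreated) of DNAJ genes (red), Hsp70 and Hsp110 genes (black), exchange factors (green) and other partners (pale) by compartment, with dashed lines at 2-fold. HSPA5 and DNAJB9 are both high in the ER at 2.15 and 1.90, whereas HSPA9 at 1.51 and DNAJC19 at -0.83 are apart in mitochondria.

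Among 10 exchange factors, GRPEL2 alone was called, 6 rose and 2 fell by edgeR's adjusted p, and the median was 0.34. Over all genes 27.1% were called, and 39.0% rose and 38.6% fell by the adjusted p. BAG1 rose by 0.87, BAG6 by 0.72 and BAG3 by 0.46. Among 9 other co-chaperones of Hsp70 and Hsp90, SGTB, a glutamine-rich tetratricopeptide protein, rose by 3.29 from between 10.2 and 11.2 to between 97.2 and 108.6 CPM, the 1 call of that list. Its paralog SGTA rose by 0.41. STIP1, which links Hsp70 to Hsp90, and the ubiquitin ligase STUB1 had 0.05 ± 0.0353 and -0.08 ± 0.0504 and did not pass, and the median of the list was 0.11.

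Promoter sequence was examined for 39 of the 43 members, those with a window in RefSeq (GRCh38.p14) from 250 bases before to 50 bases after a gene's start. DNAJB3, DNAJC1, DNAJC22 and DNAJC24 had none. Both strands were searched for the inverted heat shock pairs GAANNTTC and TTCNNGAA, which overlap where 3 units alternate. GAANNTTC was in 3 members, DNAJA1, DNAJB6 and the untested DNAJB7 (7.69% against 6.87% of 27305 windows and 4.61% of those of tested genes). TTCNNGAA was in DNAJA1, DNAJB6 and DNAJC15 (7.69% against 7.84% and 5.97%). None of the 9 called-higher members with a window held either. The window of DNAJB1 lies 10851 bases upstream of the start of NM_006145, the mRNA that held 98.8% of its untreated counts, so it does not cover the start in use, and only 20 of the 39 windows start within 100 bases of the GENCODE v29 start of the member's most counted transcript. Only 4 of the 9 called-higher members were among these 20, and 0 of the 4 held either pair. For the other called-higher members the window does not settle what lies at the start in use.

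The core CCACG of the unfolded protein response element was in 21 members (53.8% against 37.9% of all windows and 50% of those of tested genes), and CCAAT followed after 9 bases by CCACG in 0. The ATF4 element TGATGCAAT and its relaxed form TGATGNAAN were in 0 members (0.264% and 3.67% of all windows, 0.14% and 1.63% of those of tested genes). The cAMP response element TGACGTCA was in DNAJC27 (1.98% of all windows and 3.25% of those of tested genes). Printed here are DNAJA1 and DNAJB6, the tested members with 3 alternating heat shock units, whose gene totals stayed below 2-fold, and DNAJC27, the called member with a cAMP response element, with these matches and CCACG in capitals. They span chr9:33025023-33025302 (plus strand), chr7:157336754-157337033 (plus) and chr2:24972065-24972344 (minus), each ending 30 bases past the start, and a match is a description of letters only.
DNAJA1: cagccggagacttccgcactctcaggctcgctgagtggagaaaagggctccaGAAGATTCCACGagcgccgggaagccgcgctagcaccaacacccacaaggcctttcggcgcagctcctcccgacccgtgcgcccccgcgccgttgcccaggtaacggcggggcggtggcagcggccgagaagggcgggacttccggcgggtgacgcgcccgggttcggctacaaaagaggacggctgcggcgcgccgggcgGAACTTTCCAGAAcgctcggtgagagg
DNAJB6: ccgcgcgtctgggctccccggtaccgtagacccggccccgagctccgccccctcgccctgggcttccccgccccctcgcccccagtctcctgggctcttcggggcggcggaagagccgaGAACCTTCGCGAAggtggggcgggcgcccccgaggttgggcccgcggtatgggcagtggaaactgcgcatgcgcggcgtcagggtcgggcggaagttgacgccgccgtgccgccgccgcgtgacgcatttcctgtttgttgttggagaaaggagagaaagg
DNAJC27: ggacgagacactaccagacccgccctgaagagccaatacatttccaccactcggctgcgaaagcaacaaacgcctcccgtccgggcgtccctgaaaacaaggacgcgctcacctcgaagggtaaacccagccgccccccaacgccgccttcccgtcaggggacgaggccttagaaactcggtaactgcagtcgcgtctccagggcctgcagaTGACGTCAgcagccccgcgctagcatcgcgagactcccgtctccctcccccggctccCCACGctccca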

How the data were processed

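Whole-number read counts per gene and per transcript were deposited by the authors without normalization, together with FPKM values scaled by the authors to transcript length and mapped reads. The labels name a stranded mRNA kit, and the submitters' processing notes name FastQC 0.11.7, HISAT2 2.1.0, StringTie 2.1.3b and the mouse build mm10, although the tables hold human genes; the tables name no build, their positions differ from GRCh38, and whether counting used strand is not given in the sources used here, so genes that overlap another are uncertain.

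Counts of all genes were fitted in R 4.3.3 with edgeR 4.0.16 (filterByExpr, TMM factors, glmQLFit and glmQLFTest on all 6 libraries, no block), p-values being adjusted by the Benjamini-Hochberg method across the genes tested, and transcripts likewise. Of 35993 genes, 15205 had 0 counts throughout and 6060 more were filtered out. CPM uses TMM-scaled library sizes. Standard errors were derived from the F statistic. Alternatives were other size factors, DESeq2 1.42.0, limma 3.58.1 on log2(FPKM + 1) and log2(FPKM + 0.1), other filters, counts summed from transcripts, a replicate block and leaving out each library. On counts simulated from the gene table with 200 genes changed 4-fold, edgeR called 98.5% of them and 11 of 14429 unchanged genes. In the data 3998 genes were called, many more than were changed in the simulation. These rates may therefore not hold for the data or for changes below 4-fold. On counts simulated from the transcript table edgeR called 21.6% of 185 changed transcripts and 1 unchanged one, so a transcript that was not called may still have changed.

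Groups came from the sample titles. The labels do not say whether libraries came from separate cultures, so p-values measure the spread between these libraries only. Replicate pairs differed by more than counting error (chi-square over degrees of freedom 4.77 to 6.79), so no library was a copy of another. Members were named by symbol, per-library values are given for called members and close relatives, and partners come from lists of Hsp70 genes and co-chaperones. The members, the lists and the compartments were chosen with earlier results of these data known. Deposited TPM values were not used. A listed partner gene is not reported here.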

Additional observations from a re-analysis of the deposited data

How the results depend on the processing

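The 10 calls higher became 6, the single call lower 0 and the 3998 calls over all genes 1997 with limma on log2(FPKM + 1), and 7, 1 and 3829 with log2(FPKM + 0.1). With the former DNAJC22 had -0.41 with an adjusted p of 0.000274. Calls lower became 2 without a filter on low counts. The cause of the limma losses was not tested. Without 1 library, calls higher ranged from 10 to 11 and members past the adjusted p from 27 to 32, while the latter were 36 without scaling factors and 34 with upper-quartile factors. The median over members, 0.19, was 0.021 with DESeq2's Wald test, 0.0805 and 0.0537 with limma on log2(FPKM + 0.1) and log2(FPKM + 1), 0.0398 without a filter, 0.0242 without scaling factors, 0.0481 with upper-quartile factors, and ranged from 0.131 (without rhCYGB library 2) to 0.220 (without rhCYGB library 3). In the same 6 settings the median of class B, 0.40, was 0.021, 0.231, 0.182, 0.0398, 0.235 and 0.259. For limma with 0.1, limma with 1, no scaling factors and upper-quartile factors, class A was 0.587, 0.573, 0.588 and 0.611, and class C -0.222, -0.182, -0.225 and -0.201. DESeq2 and the unfiltered fit add members with almost no counts, and the median of all genes itself moved to -0.169 without scaling factors and -0.146 with upper-quartile factors. Relative to that median and with the 38 members held fixed, 8 settings put the family between 0.14 and 0.232 and class A between 0.66 and 0.796. Class B lay between 0.268 and 0.444 and class C between -0.096 and -0.016. Some fits without 1 library fell outside these ranges. The family had 0.235 and class C -0.005 without rhCYGB library 3, and class B had 0.477 without rhCYGB library 2. Signs turned only for genes that did not pass: DNAJB14 (-0.123, -0.102, -0.126 and -0.103 in those 4 settings), DNAJB6 (0.004 with both limma fits) and DNAJC4 (from -0.078 without untreated library 1 to 0.055 without untreated library 3). Called transcripts numbered 15, and 10 to 17 over 11 alternatives chosen after seeing the data.

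Libraries with the same replicate number showed no sign of deviating together (correlations -0.041, 0.037 and 0.021). With 3 libraries in each group this cannot exclude that the numbers pair them. With the replicate number as a block, calls were 10 higher, 1 lower, 31 past the adjusted p, 3978 over all genes and 15 transcripts, and DNAJA4 NM_018602 had an adjusted p of 0.144.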

Other observations

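The table also lists pseudogenes and other rows named after DNAJ genes. The DNAJA1, DNAJB1, DNAJC8 and DNAJC19 pseudogenes had at most 5 counts in any library, so few reads were assigned to these copies. The antisense row DNAJC9-AS1 had 50, 68 and 82 counts in untreated and 45, 30 and 46 in treated libraries, and DNAJC3-DT, which lies beside DNAJC3, had 62, 74 and 71 and then 32, 48 and 57. Neither passed edgeR's adjusted p (0.0684 and 0.167).

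Other J-domain genes whose symbols do not match included GAK, the widely expressed relative of DNAJC6, which rose by 0.43 on the log2 scale, and DNAJC5B and DNAJC5G, which had 0 counts throughout. The list of 8 also held the J-like PAM16 and DNLZ, an HSPA9 partner without a J domain. Of the 8 genes 6 were tested, and PAM16 and DNLZ were the 2 called higher by edgeR, as were 12.4% of all genes.

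The DNAJC19 mRNA NM_145261 held 88.8% of the gene's counts in untreated and 75.3% in treated cells. It fell by 1.15 on the log2 scale in the transcript fit, while the gene total fell by 0.83 in the differently scaled gene fit. The DNAJB12 row NR_157570 had 0 counts in every untreated library and 75, 25 and 72 in the treated ones. Both were picked once their values were known, and isoform assignment was not tested.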
